A study of Mus musculus with 30 samples.

Results

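Peaks of the cohesin subunit SMC1A were set against peaks of CTCF in untreated mouse embryonic stem cells, to ask where the proteins were listed together and where only one of them was. Every peak on chromosomes 1 to 19 and X of the 0 h SMC1A list and of the 0 h CTCF list was taken, and an SMC1A peak and a CTCF peak were called shared where they overlapped by at least 1 bp. This gave 16723 SMC1A peaks and 29926 CTCF peaks, out of 1428772 peaks in the 20 lists of the series. The overlap left 13665 shared and 3058 SMC1A-only peaks, and 13760 shared and 16166 CTCF-only peaks. Where an SMC1A peak overlapped several CTCF peaks, the CTCF peak with the nearest summit made the pair, so that each of the 13665 shared SMC1A peaks entered 1 pair. All other SMC1A peaks are called SMC1A-only, which means that no CTCF peak was listed there and not that CTCF was absent.

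The series used chromatin immunoprecipitation and sequencing (ChIP-seq) in E14 cells, a mouse embryonic stem cell line, grown without serum and with leukemia inhibitory factor and the kinase inhibitors PD0325901 and CHIR99021. The genotype of the cells in both lists was CTCF AID, in which CTCF carries an auxin-inducible degron. Neither library had been treated with the auxin IAA, so the tag is present in both and no cells without it enter the comparison. CTCF and SMC1A had 1 library each, whose chromatin was crosslinked, sonicated and immunoprecipitated with antibodies. Lists for 4 chromatin remodelers at 0 h are used further on. Those came from CTCF AID cells that also carry biotin-CHD4, biotin-CHD8, biotin-SMARCA4 or biotin-SMARCA5, with 2 libraries for each remodeler. The labels do not say whether libraries came from separate cultures.

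CTCF is a zinc-finger protein that reads a long, asymmetric DNA motif. Cohesin is a ring of SMC1A, SMC3, RAD21 and a STAG subunit that is loaded onto chromatin by NIPBL and extrudes loops of DNA until it meets CTCF, whose N-terminal part faces extruding cohesin and halts it. Loop anchors therefore tend to carry CTCF motifs that point at each other, and ring complexes can also be found at active promoters and enhancers, where loading factors and Mediator are known to sit.

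With 1 library for each protein no difference between the lists could be tested. Shares are given with exact Clopper-Pearson 95% intervals and medians with 95% intervals from order statistics. Both kinds reflect only the number of peaks, taken as independent of each other, and no spread between libraries. As a background, each summit was moved by 100 kb to either side and measured in the same way. Fold enrichment, the ratio of a peak to its local background, and the −log10 p by which peaks were ranked are the authors' values. They were ranked only within a list, because the depth of the libraries is unknown. Where values of both lists stand side by side, they describe each list and do not measure a difference between the proteins. The listed values differed between the lists, as did the number of peaks. The median fold enrichment was 5.55 in the SMC1A list and 12.2 in the CTCF list, and 74.7% of SMC1A peaks against 96.8% of CTCF peaks had a −log10 q of at least 5. In base pairs, 5.71 Mb lay under both lists, which is 65.0% of the SMC1A peaks' 8.79 Mb and 43.0% of the CTCF peaks' 13.3 Mb.

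The DNA under the summits separated the classes. A model of the CTCF motif was built from the 1000 strongest CTCF peaks on odd-numbered chromosomes, within 50 bp of the summit. Its consensus is NGGCCACCAGGGGGCGCNN, where N marks positions at which no base reached 50%. Both strands were searched, and the threshold was set so that 5.00% of windows of the same length at the shifted positions held a match. The following windows, which run 50 bp to either side of a summit, show a pair of the highest-ranked shared peaks, the highest-ranked shared and SMC1A-only peaks at the pluripotency genes Nanog and Esrrb, a pair of the strongest SMC1A-only peaks, and 2 of the strongest CTCF-only peaks that have no UTR in the window. The windows at Nanog and Esrrb were chosen after their values were seen. They are centred on the CTCF summit, or on the SMC1A summit where there was no CTCF peak. Letters are from the RefSeq genome GRCm38.p6, plus strand, 5′ to 3′, and capitals mark the match to the motif on either strand.
Hif1an shared, chr19:44582816-44582916: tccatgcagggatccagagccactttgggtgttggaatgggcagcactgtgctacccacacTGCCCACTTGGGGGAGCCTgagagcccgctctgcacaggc
Rapgef1 shared, chr2:29619624-29619724: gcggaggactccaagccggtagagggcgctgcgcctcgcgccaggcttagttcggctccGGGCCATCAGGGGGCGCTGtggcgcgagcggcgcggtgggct
Nanog shared, chr6:122720104-122720204: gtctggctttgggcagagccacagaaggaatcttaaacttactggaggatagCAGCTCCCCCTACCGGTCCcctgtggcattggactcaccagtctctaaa
Esrrb shared, chr12:86402866-86402966: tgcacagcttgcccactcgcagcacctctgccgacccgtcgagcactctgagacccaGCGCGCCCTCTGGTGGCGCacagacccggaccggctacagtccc
Nanog SMC1A-only, chr6:122702636-122702736: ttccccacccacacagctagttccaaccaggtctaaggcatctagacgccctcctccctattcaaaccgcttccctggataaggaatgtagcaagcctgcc
Esrrb SMC1A-only, chr12:86471088-86471188: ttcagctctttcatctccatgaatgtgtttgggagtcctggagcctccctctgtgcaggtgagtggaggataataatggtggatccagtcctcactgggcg
Gpr37l1 SMC1A-only, chr1:135172148-135172248: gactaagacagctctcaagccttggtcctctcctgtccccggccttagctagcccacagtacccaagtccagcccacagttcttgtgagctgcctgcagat
Mir710 SMC1A-only, chr8:64548627-64548727: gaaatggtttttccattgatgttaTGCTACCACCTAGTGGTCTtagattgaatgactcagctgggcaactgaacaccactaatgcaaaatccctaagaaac
Rplp0 CTCF-only, chr5:115559268-115559368: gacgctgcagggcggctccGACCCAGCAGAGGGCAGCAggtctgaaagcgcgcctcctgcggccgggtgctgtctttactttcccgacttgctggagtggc
Hnrnpdl CTCF-only, chr5:100038950-100039050: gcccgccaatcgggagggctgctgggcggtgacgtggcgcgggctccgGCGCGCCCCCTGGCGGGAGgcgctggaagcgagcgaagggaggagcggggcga
In the 4 shared windows a match was found within 25 bp of the centre, on the plus strand at Hif1an and Rapgef1 and on the minus strand at Nanog and Esrrb. The SMC1A-only windows at Nanog, Esrrb and Gpr37l1 had no match, whereas the one near Mir710 had one. The windows at Rplp0 and Hnrnpdl, where CTCF was listed without SMC1A, each had one. A match describes the letters and is neither a bound site nor a cause, and a window without a match says nothing about the factor.

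Over whole classes, 96.9% (95% interval 96.6 to 97.2) of the shared CTCF summits and 88.2% (87.7 to 88.7) of the CTCF-only summits had a match. On the chromosomes not used for the model, 92.1% of all CTCF summits had one, against 92.2% on all chromosomes. The rule for the classes did not use the sequence, but stronger CTCF peaks were more often shared and also more often matched. Within the weakest 10% of the CTCF list 77.5% of shared and 73.8% of CTCF-only summits matched, and within the strongest 10% of the list 97.9% and 94.3% did. Around SMC1A summits, 76.8% (76.1 to 77.5) of shared and 24.6% (23.0 to 26.1) of SMC1A-only peaks matched. These shares were not compared at matched strength, and SMC1A-only peaks were weaker, with a median SMC1A percentile of 14.97 against 57.7. The windows reach 50 bp from the SMC1A summit. In the weakest 20% of the SMC1A list, paired summits lay a median of 43 bp apart, so weak summits can miss a nearby match. At a threshold that 1% of shifted windows passed, 10.7% (9.59 to 11.8) of the SMC1A-only peaks matched. Among SMC1A-only peaks more than 1 kb from any CTCF summit, 27.7% (25.1 to 30.4) of the 1149 at promoters and 22.4% (20.5 to 24.4) of the 1814 elsewhere had a match. A minority of the SMC1A-only peaks therefore lay over a CTCF-like sequence, at a share above the 5.00% of the shifted windows. The shifted windows were not matched for base composition, and the motif itself is rich in G and C. Around SMC1A-only summits the median share of G and C was 68.2% at promoters and 49.8% elsewhere. The part of base composition in the motif shares was not tested.

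Shared peaks had their summits close together. The SMC1A and CTCF summits of a pair lay a median of 24 bp apart (24 to 25, n = 13665 pairs), with an interquartile range of 11 to 45 bp. They were within 10 bp of each other in 23.2% of pairs, within 50 bp in 79.3% and within 100 bp in 93.4%. The distance depended on the strength of the SMC1A peak. Its median was 43 bp (40 to 45) in the weakest 20% of the SMC1A list and 19 bp (19 to 20) in the strongest 20%. By the strength of the CTCF peak it was 37 bp (34 to 41) in the weakest and 22 bp (21 to 23) in the strongest 20%. These distances are small beside the peaks themselves, whose median width was 476 bp for SMC1A and 420 bp for CTCF.

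The motif gives each pair a direction, and SMC1A and CTCF summits were placed differently along it. Distances were signed on the strand that carries the G-rich match, so that the 5′ side is the side of the first letters of the consensus. The CTCF summit lay a median of 7 bp (6 to 7) to the 3′ side of the motif's centre, and 71.9% (71.1 to 72.7) of the 12947 CTCF summits not at the centre itself were on that side. The SMC1A summit lay at −4 bp (−5 to −4), and 45.9% (45.1 to 46.8) of 13121 were on the 3′ side. Measured from the CTCF summit of the pair, the SMC1A summit was at −9 bp (−9 to −8), with 39.6% (38.8 to 40.5) on the 3′ side. SMC1A signal thus peaked a few bp to the 5′ side of the CTCF summit. For motifs that point at each other, the 5′ side is the one facing away from the partner. The side was the same for matches on either strand of the genome. SMC1A summits were on the 3′ side in 44.0% (42.8 to 45.2) of pairs with the match on the plus strand and 47.8% (46.6 to 49.0) with the match on the minus strand, and for CTCF the values were 69.8% and 74.0%.

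The edges of the peaks showed the same asymmetry. SMC1A peaks reached a median of 250 bp (248 to 252) to the 5′ side of the motif centre and 232 bp (230 to 234) to the 3′ side. CTCF peaks reached 232 bp (230 to 233) to the 5′ side and 235 bp (234 to 237) to the 3′ side. In 44.1% (43.2 to 44.9) of pairs the SMC1A peak reached farther 3′ than 5′, against 51.3% (50.5 to 52.2) for CTCF. The spread of single summits was larger than these medians. The interquartile range of the SMC1A summit was −25 to 19 bp, and that of the CTCF summit was −2 to 14 bp. The match was searched only within 50 bp of the CTCF summit. That rule bounds the CTCF distances and not the SMC1A distances, so the widths of these ranges cannot be compared. Of the 13252 pairs with a match, 1737 had the SMC1A summit between −20 and −10 bp, the fullest step of 10 bp, and 1447 between 0 and 10 bp.

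**Figure D1:**
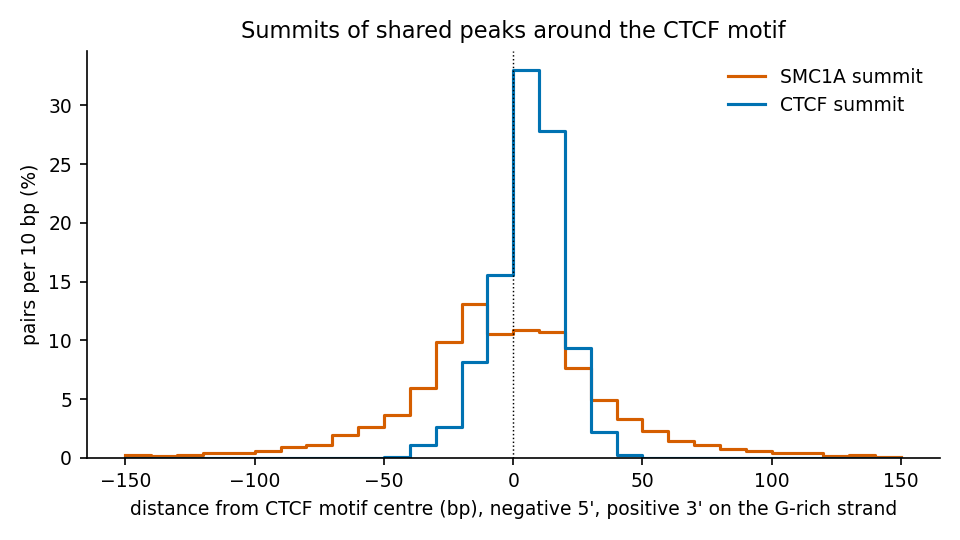
Share of shared pairs (y axis, percent per 10 bp) against the signed distance of a summit from the centre of the CTCF motif (x axis, bp, 3′ side positive), for SMC1A and CTCF summits of pairs with a motif match. The CTCF curve is narrow with its median at 7 bp, and the SMC1A curve is broader with its median at −4 bp. The match was searched within 50 bp of the CTCF summit, which bounds the CTCF curve only.

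Shared peaks were nearly equally wide in the lists. The median width was 488 bp (484 to 491) for SMC1A and 477 bp (475 to 480) for CTCF, and the median ratio was 1.03 (1.03 to 1.04). The SMC1A peak was the wider one in 53.6% (52.7 to 54.4) of pairs. In the strongest 20% of SMC1A peaks the ratio was 1.21 (1.19 to 1.23), and in the weakest it was 0.93 (0.91 to 0.95). By strength of the CTCF peak the order was the other way round, with a ratio of 1.41 (1.37 to 1.45) in the weakest 20% and 0.91 (0.90 to 0.93) in the strongest. Within each list strong peaks were wide (Spearman's rho between percentile and width 0.52 over 16723 SMC1A peaks and 0.79 over 29926 CTCF peaks), so a ratio sorted by the strength of one partner is not a measure independent of that strength. The narrowest listed peak was 298 bp in the SMC1A list and 229 bp in the CTCF list, a difference that sets a floor under each width.

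The strengths of the partners in a pair were related, but loosely. Spearman's rho between the SMC1A and the CTCF percentile by −log10 p was 0.42 across 13665 pairs, and 0.44 by fold enrichment. These are descriptions across peaks of 1 library each, which share the DNA beneath them. The partners of the weakest 20% of SMC1A peaks had a median CTCF percentile of 45.8 (interquartile range 26.5 to 67.4), and those of the strongest 20% had 82.8 (68.1 to 92.8). Of the pairs, 1832 were in the strongest 20% of both lists, which is 13.4%. In 1023 pairs the CTCF peak was in the strongest 20% of its list while the SMC1A peak was in the weaker 50% of its own, and 297 pairs showed the reverse. These counts were out of 4537 pairs with a CTCF peak in the strongest 20% and 3288 with such an SMC1A peak. Percentiles were taken over full lists of unlike length, so the counts do not measure an asymmetry between the proteins.

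Named pairs show both ends of this range. The 5 highest-ranked pairs lay near AC164009.1 on chromosome 18, in an intron of Gm2619 with Gm16025 as the nearest start, near Hif1an (an asparagine hydroxylase of the hypoxia pathway), at Rapgef1 (a guanine nucleotide exchange factor) and in a UTR of Acbd4. Their SMC1A fold enrichments were 28.7, 10.04, 24.7, 17.9 and 17.8, and their CTCF fold enrichments were 85.9, 40.3, 70.2, 73.3 and 84.8. The 5 pairs had summits between 5 and 47 bp apart and each had a motif match. The pair in Gm2619 lies in repeat-masked sequence over 100% of the window around its summit, where reads can map to several copies. At the promoter of Kif1b, a kinesin motor gene, CTCF ranked at percentile 99.2 and SMC1A at 3.94 (fold enrichments 44.7 and 3.18). At the promoter of Nsmce4a, a subunit of the SMC5/6 complex, the percentiles were 97.9 and 0.58, and the summits lay 618 bp apart, with the peaks overlapping at their edges. In the other direction, the pair near Akr1c12, an aldo-keto reductase gene, ranked at percentile 4.34 for CTCF and 94.7 for SMC1A, with no motif match under the CTCF summit.

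How often a peak was shared depended on its strength, and the course differed between the lists. With each list cut into 10 steps of equal size, from step 1 for the weakest peaks to step 10 for the strongest, 57.2% (54.8 to 59.6) of SMC1A peaks in step 2 were shared, 87.6% (85.9 to 89.2) in step 5 and 98.4% (97.7 to 98.9) in step 8. Only 4 of the 1673 SMC1A peaks in step 10 lacked a CTCF peak. In the CTCF list the same steps gave 16.0% (14.7 to 17.4), 43.6% (41.8 to 45.4) and 66.5% (64.8 to 68.2), and 646 of the 2994 strongest CTCF peaks had no SMC1A peak. The median SMC1A percentile of SMC1A-only peaks was 14.97, against 57.7 for shared ones, so the classes differ in strength as well. A weak peak in bulk chromatin can mean fewer cells with the protein or less of it per cell, and the lists cannot tell these apart.

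**Figure D2:**
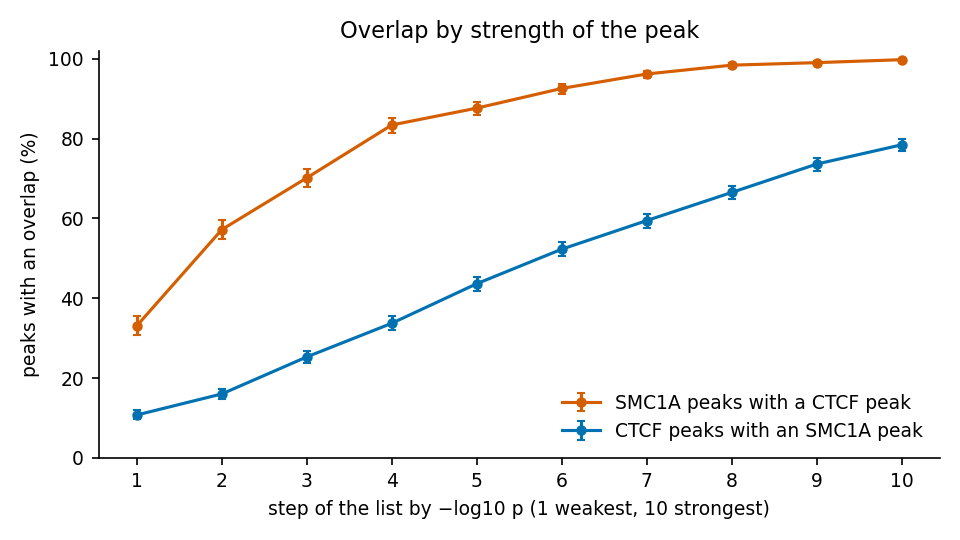
Percentage of peaks with an overlap (y axis) in 10 steps of the list by −log10 p (x axis, 1 weakest to 10 strongest), with exact 95% intervals over peaks. SMC1A peaks run from 33.1% to 99.8% and CTCF peaks from 10.7% to 78.4%.

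SMC1A-only peaks lay at promoters more often than the other classes. A summit within 1 kb of an annotated start site was counted as a promoter. This held for 39.4% (37.7 to 41.2) of the 3058 SMC1A-only peaks, for 12.95% (12.4 to 13.5) of shared SMC1A peaks, for 13.9% (13.3 to 14.4) of CTCF-only peaks and for 6.38% of shifted SMC1A positions. Introns held 27.3% of SMC1A-only and 40.1% of shared SMC1A peaks, and intergenic sequence held 30.8% and 42.4%. The difference was present at matched strength. In the weakest 20% of the SMC1A list 41.0% (38.8 to 43.3) of SMC1A-only and 18.7% (16.8 to 20.8) of shared peaks were at promoters. In the middle 20% the values were 37.0% (31.8 to 42.5) and 11.6% (10.5 to 12.8). In the strongest 20% only 20 peaks were SMC1A-only, 5 of them at promoters.

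The promoters with SMC1A alone were mostly CpG-rich promoters of protein-coding genes. The nearest start belonged to a protein-coding gene for 85.2% (83.1 to 87.2) of the 1205 SMC1A-only promoter peaks and for 69.3% (67.1 to 71.5) of the 1770 shared ones. In the 201 bp around the summit, 74.9% (72.3 to 77.3) of the former and 50.4% (48.0 to 52.8) of the latter had at least 50% G or C and an observed to expected CpG ratio of at least 0.6. Away from promoters those shares were 7.12% (5.99 to 8.39) and 4.78% (4.40 to 5.17). For CTCF peaks the order of the classes changed with strength. In the strongest 20% of the CTCF list 24.9% (22.6 to 27.2) of the CTCF-only peaks and 19.1% (17.99 to 20.3) of the shared peaks were within 1 kb of a start site. In the weakest 20% these were 14.7% (13.8 to 15.7) and 18.1% (15.5 to 21.0), and in the next 20% they were 11.3% (10.4 to 12.3) and 10.9% (9.44 to 12.4).

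**Figure D3:**
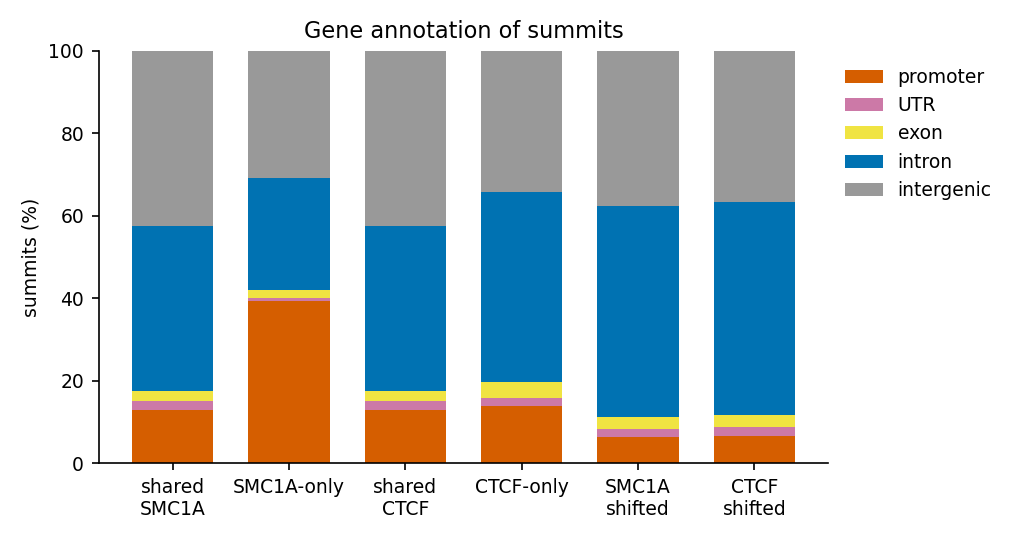
Percentage of summits (y axis) in promoters (within 1 kb of a start site), UTRs, exons, introns and intergenic sequence, for each class of peak and for the shifted positions. Promoters make up 39.4% of the SMC1A-only column and 12.95% of the shared SMC1A column.

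The strongest peaks of each class were of different kinds. The 5 strongest SMC1A-only peaks had fold enrichments between 9.33 and 10.1. They lay in an intron of Erich1 with Gm45520 as the nearest start, near Mir710, at the promoter of Fra10ac1, near Gpr37l1 and near Egfem1. The nearest listed CTCF summit was 19576, 31589, 4723, 736 and 4313 bp away, in that order. Only the summits near Mir710 and Egfem1 had a motif match, and no remodeler library had a peak there. The summit at Fra10ac1, 26 bp from the start site, lay inside peaks of 7 of the 8 remodeler libraries. The 5 strongest CTCF-only peaks had fold enrichments between 54.0 and 66.1. They lay in a UTR of Coa5, and between 31 and 158 bp from the start sites of Dnajc11, Zfp398, Rplp0 and Kdm3b. Rplp0 encodes a protein of the ribosome's stalk and Kdm3b a histone demethylase. Each of the 5 had a motif match.

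Some pluripotency genes had SMC1A without CTCF at their promoters. SMC1A summits lay within 1 kb of a start site in 8 of 24 pluripotency genes, against 11.4% of the 21755 protein-coding genes. SMC1A-only summits did so in 7 of the 24, against 5.3% of all genes. The 7 were Nanog, Sox2, Esrrb, Klf2, Klf5 and Sall4, which encode transcription factors of the naive stem cell network, and Tdgf1, a co-receptor of Nodal signalling. By −log10 p these promoter peaks ranked at percentiles 39.7, 2.17, 7.70, 33.2, 30.8, 12.2 and 1.32 among all SMC1A peaks, in that order. The count of 7 thus includes some of the weakest SMC1A peaks. CTCF summits lay at the promoters of 3 of the 24, namely Tbx3, Lefty1 and Nodal, against 14% of all genes. Within the gene or 10 kb around it, SMC1A-only summits were listed for 12 of the 24, against 11.4% of all genes, and shared SMC1A summits for 12, against 38.2%. The list was chosen with earlier results of these data known, and long genes catch more peaks, so these counts are descriptions.

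At Nanog, SMC1A peaks formed a run of 6, each within 10 kb of the next, over 24448 bp of chromosome 6 in GRCm38. Of the 6 only the peak at chr6:122719868-122720512, with a fold enrichment of 5.71, overlapped a CTCF peak, whose fold enrichment was 14.2. The strongest SMC1A-only peak of the run, at chr6:122702387-122703033, had a fold enrichment of 6.63 and lay inside peaks of 7 of the 8 remodeler libraries. The promoter peak at chr6:122707377-122707808 was at 4.71, with its summit in the UTR 21 bp from the start site and inside peaks of 6 of the 8 libraries. The remaining SMC1A-only peaks had fold enrichments of 2.80, 3.05 and 3.604, in introns of Nanog for the first 2 and toward Slc2a3 for the last. In that order they lay inside peaks of 4, 1 and 6 of the 8 libraries, and only the first had a motif match.

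At Sox2 the promoter peak of SMC1A, chr3:34649609-34649967, had a fold enrichment of 3.18 and no CTCF peak. A shared peak lay 2527 bp from the Sox2 start, with fold enrichments of 7.42 for SMC1A and 17.5 for CTCF. Klf2 had a single SMC1A-only peak of 2333 bp, the widest in the list, with a fold enrichment of 4.93 at chr8:72319096-72321428, and no CTCF peak within 10 kb of the gene. Pou5f1, which encodes OCT4, had no SMC1A summit within 1 kb of its own start. An SMC1A-only peak 3100 bp from that start, chr17:35502534-35503061, had a fold enrichment of 4.22 and lay inside peaks of all 8 remodeler libraries. A closer SMC1A-only peak, chr17:35507139-35507449, lay in an intron 1250 bp from that start. It had a fold enrichment of 4.14 and lay inside peaks of 2 of the 8 libraries. Another at chr17:35516100-35516602, 242 bp from the Tcf19 start, was at 3.38 and inside peaks of 6 of the 8. A shared peak inside Pou5f1, chr17:35509294-35509937, had fold enrichments of 7.94 for SMC1A and 9.19 for CTCF, and the next shared peak, in an intron nearest the Tcf19 start, had 9.03 and 26.5.

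Esrrb, an orphan nuclear receptor gene of the same network, had 8 SMC1A peaks in the gene or 10 kb around it, of which 4 were shared. The SMC1A-only peaks had fold enrichments from 3.405 at the promoter to 5.22 at chr12:86470609-86471406, and the shared ones from 3.83 to 8.91. None of the 4 SMC1A-only summits had a motif match, and they lay inside peaks of 2 to 6 of the 8 remodeler libraries. The shared peak at chr12:86402608-86403316 was the strongest of the gene for both proteins, with fold enrichments of 8.91 for SMC1A and 25.5 for CTCF.

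Other gene lists were counted in the same way, with no test between lists. Of 23 lineage regulators known to be silent in stem cells, none had an SMC1A-only summit at the promoter, against 5.3% of all genes, and 1, the T-box gene Eomes, had a shared one, against 6.26%. CTCF summits were at the promoters of 5 of the 23 (Cdx2, Eomes, Gata6, Myod1 and Olig2), against 14%. In the gene or 10 kb around it, 7 of the 23 had an SMC1A summit, against 43.4% of all genes, and 16 a CTCF summit, against 60.1%. Of 83 ribosomal protein genes, 25 had a CTCF summit at the promoter, against 14% of all genes, and 7 an SMC1A summit (8.43%), against 11.4%. CTCF-only summits were at the promoters of 21 of the 83, against 7.96% of all genes, and shared SMC1A summits at 5, against 6.26%. Among 22 genes of the cohesin and CTCF machinery, CTCF summits were at the promoters of 7, against 14% of all genes: Ctcf itself, the SMC3 gene Smc3, the STAG subunit genes Stag1 and Stag2, the acetyltransferase gene Esco1 and the PDS5 genes Pds5a and Pds5b. SMC1A was listed at 2 of the 22 (9.09%), near the 11.4% of all genes, together with CTCF at Stag1 (fold enrichment 12.6) and without it at the meiotic subunit gene Stag3 (4.43).

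For imprinted, Hox and histone genes the shares of all genes with a summit at the promoter are again the background, at 11.4% for SMC1A, 5.3% for SMC1A-only and 14% for CTCF summits. SMC1A summits were at the promoters of 4 of 25 imprinted genes (16.0%), with Mest, Nnat and Plagl1 SMC1A-only and Zim1 shared. CTCF summits were at 6 of the 25. Of 39 Hox genes, 8 had an SMC1A summit and 7 a CTCF summit at the promoter, and 30 had an SMC1A summit in the gene or 10 kb around it, against 43.4% of all genes, where neighbours in a cluster share peaks. Of 66 replication-dependent histone genes, 5 had an SMC1A summit (7.58%) and 7 a CTCF summit (10.6%) at the promoter, both below the shares of all genes, and these genes are close relatives to which reads can map more than once.

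Peaks of CHD4, CHD8 and SMARCA4 covered most SMC1A-only summits and a minority of shared ones, and SMARCA5 covered fewer of both. CHD4 is the ATPase of the NuRD complex, CHD8 a chromodomain remodeler, SMARCA4 (BRG1) the ATPase of the BAF complexes and SMARCA5 (SNF2H) that of the ISWI complexes. SMARCA4 peaks covered 80.2% and 77.0% of the 3058 SMC1A-only summits in its 2 libraries, against 30.6% and 22.2% of shared SMC1A summits. CHD4 covered 79.5% and 61.9% against 44.4% and 23.2%. CHD8 covered 71.0% and 63.4% against 29.7% and 24.1%. SMARCA5 covered 29.9% and 42.0% against 9.996% and 15.4%. In each of the 8 libraries the share was higher at SMC1A-only summits, and at shifted positions it was between 2.09% and 7.71%. SMC1A-only peaks were weaker than shared ones, and the remodeler shares were not compared at matched strength.

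As log2 odds ratios of SMC1A-only against shared summits, the means over the 2 libraries were 3.38 ± 0.25 (SD, n = 2) for SMARCA4, 2.49 ± 0.06 (SD, n = 2) for CHD8, 2.35 ± 0.10 (SD, n = 2) for CHD4 and 1.97 ± 0.04 (SD, n = 2) for SMARCA5. Away from promoters they were 3.25 ± 0.43, 2.09 ± 0.00, 2.22 ± 0.32 and 2.06 ± 0.11 (SD, n = 2) in the same order, and for CHD4, SMARCA4 and SMARCA5 these differ from the values over all summits by less than their own SD. At promoters they were 2.45 ± 0.24, 2.07 ± 0.46, 1.33 ± 0.28 and 0.76 ± 0.18 (SD, n = 2) in that order, below the values over all summits by more than these SDs except for CHD8. Over all summits, requiring a remodeler summit within 100 bp gave 1.97, 0.95, 0.41 and 1.29, and for CHD4 the 2 libraries then gave −0.06 and 0.89, so that under this rule 1 of them showed no excess at SMC1A-only summits. The CHD4, SMARCA4 and other remodeler lists are longer than the SMC1A list and come from cells with a biotin tag on the remodeler, and the part of list length in these shares was not tested beyond the shifted positions. Peaks of all 4 remodelers in both libraries covered 14.9% (13.7 to 16.3) of SMC1A-only, 3.19% (2.90 to 3.50) of shared SMC1A and 2.10% (1.88 to 2.33) of CTCF-only summits. No remodeler in both libraries was found at 18.6%, 66.5% and 70.1%.

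**Figure D4:**
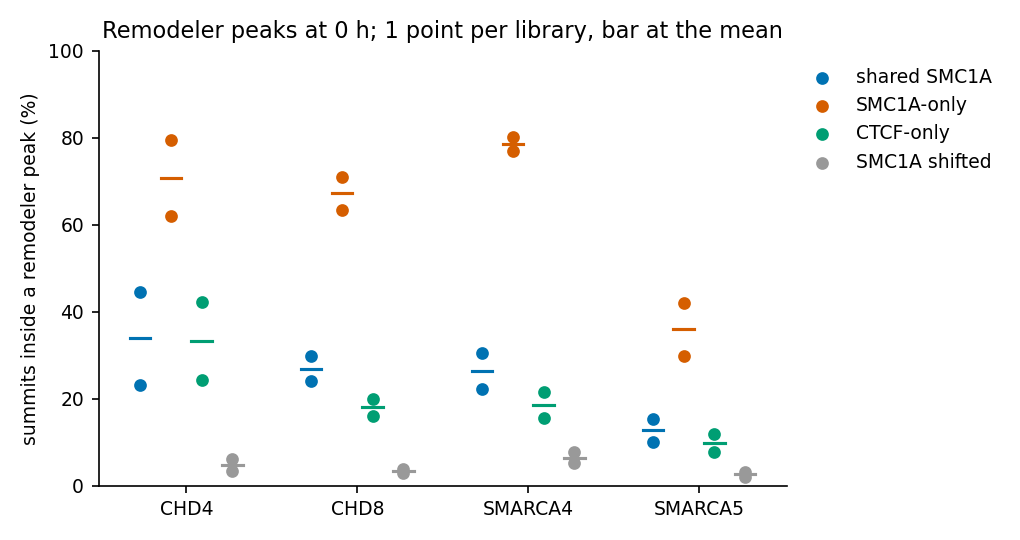
Percentage of summits inside a remodeler peak at 0 h (y axis) for CHD4, CHD8, SMARCA4 and SMARCA5 (x axis), with 1 point per library and a bar at the mean of the 2 libraries. In every library the SMC1A-only point lies above the shared SMC1A and CTCF-only points.

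Between CTCF sites with and without SMC1A the remodelers differed far less. The log2 odds ratios of shared against CTCF-only summits were 0.75 ± 0.06 (SD, n = 2) for CHD8, 0.65 ± 0.01 (SD, n = 2) for SMARCA4, 0.37 ± 0.04 (SD, n = 2) for SMARCA5 and 0.06 ± 0.15 (SD, n = 2) for CHD4. The CHD4 value was smaller than the spread of its libraries. Shared CTCF peaks were stronger than CTCF-only peaks, and these ratios were not taken at matched strength.

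CTCF sites with SMC1A were ordered along the chromosome by the direction of their motifs, and CTCF-only sites were so to a smaller extent. Each CTCF summit with a motif match was paired with the next one of its class, with a motif pointing from 5′ to 3′ on its G-rich strand, and the pair was convergent where the motifs point toward each other and divergent where they point away. With no order, 25% of pairs fall to each. Sites of the other class in between were skipped, so neighbours within a class were not always adjacent CTCF sites. Among neighbouring shared sites 100 kb to 1 Mb apart, 33.5% (32.1 to 34.8) of 4928 were convergent and 21.3% (20.1 to 22.4) divergent. Under 10 kb the order was reversed, with 12.3% (10.8 to 13.8) of 1867 convergent and 32.5% (30.3 to 34.6) divergent. At 10 to 100 kb, which held 6099 of the 13320 neighbours, 24.2% (23.1 to 25.3) were convergent and 28.9% (27.7 to 30.03) divergent, and over all distances both shares were 26.2%. Along a chromosome convergent and divergent pairs alternate, so their totals must nearly balance and the values at short and long distances are not independent. Neighbouring CTCF-only sites were convergent in 26.9% (25.7 to 28.2) of pairs 100 kb to 1 Mb apart and in 23.6% (21.8 to 25.4) of pairs under 10 kb, with 23.7% and 24.95% divergent.

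The contrast was there among strong sites too. In the upper 50% of the CTCF list, 31.0% (29.6 to 32.5) of shared neighbours 100 kb to 1 Mb apart were convergent, against 25.2% (23.4 to 27.1) of CTCF-only neighbours. Under 10 kb these values were 12.8% (10.96 to 14.8) and 25.3% (21.3 to 29.6). Divergent were 22.1% of shared and 24.1% of CTCF-only neighbours at 100 kb to 1 Mb, and 32.2% and 24.4% under 10 kb. Strong CTCF-only neighbours were thus about equally often convergent and divergent. The limit to the upper 50% was added after the data were seen.

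**Figure D5:**
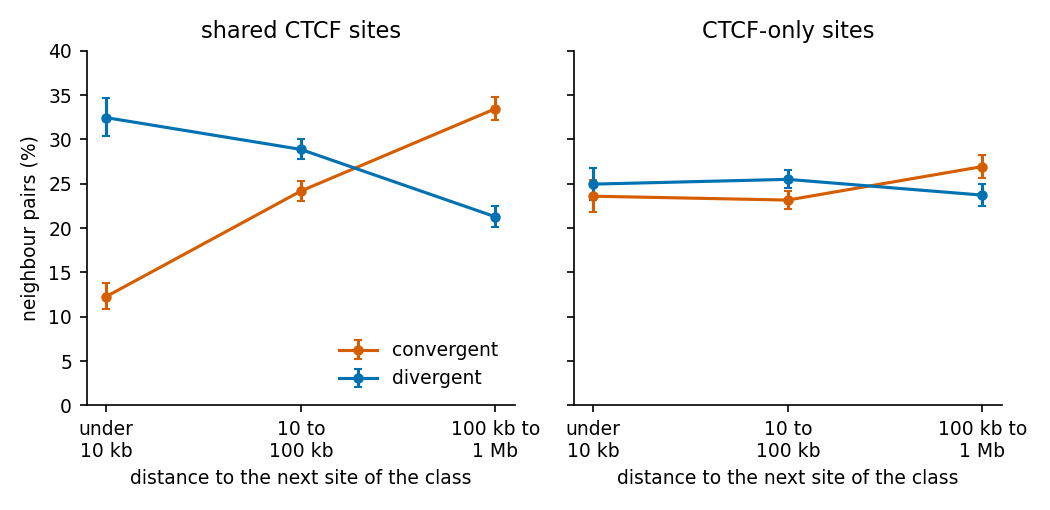
Percentage of neighbouring CTCF sites (y axis) with convergent or divergent motifs, by the distance to the next site of the same class (x axis), for shared sites (left) and CTCF-only sites (right), with exact 95% intervals. At shared sites the convergent share runs from 12.3% under 10 kb to 33.5% at 100 kb to 1 Mb, and at CTCF-only sites from 23.6% to 26.9%.

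Along the genome the lists followed each other closely. Across 2564 bins of 1 Mb, Spearman's rho between the numbers of SMC1A and CTCF peaks was 0.93, and between SMC1A peaks and gene starts it was 0.67, with mappable sequence and gene density shared by all of them. There were 388 bins without an SMC1A peak and 254 without a CTCF peak, and 233 had neither. The X chromosome was sparse in both lists. It held 0.953 SMC1A peaks per Mb, against 4.75 to 10.8 on the autosomes, and 3.16 CTCF peaks per Mb. Of the CTCF peaks on X, 25.2% (21.6 to 29.1) were shared, against 41.3% to 51.1% on the autosomes. Peaks on X and on the autosomes were not matched for strength, on which the shared share depends.

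Peaks of both lists were clustered, and the share with the next peak within 10 kb was lower for SMC1A than for CTCF. The next peak was within 10 kb for 16.3% (15.8 to 16.9) of SMC1A peaks and for 26.4% (25.9 to 26.9) of CTCF peaks. Peaks placed at random with the mean gap of each list would give 6.35% and 11.1%. With the CTCF list reduced to its 16723 strongest peaks the share was 19.5% (18.9 to 20.1), where random placement would give 6.37%. That cut sets strong CTCF peaks beside SMC1A peaks of every strength. Which list was more clustered was therefore not settled, as length and strength were not matched together. Single peaks made up 70.8% of the SMC1A list, and the 2 longest runs, singled out after their values were seen, had 7 peaks each. One of them lay in introns of Rnf220, which encodes a ubiquitin ligase, with 1 of its 7 peaks shared and fold enrichments between 3.27 and 6.799. The 6 SMC1A-only peaks of that run lay inside peaks of 6 to 8 of the 8 remodeler libraries. The other run ended at the promoter of Epha2, an ephrin receptor gene, with its last summit 89 bp from the start site, and 3 of its 7 peaks were shared.

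The fullest bin of the SMC1A list was 86000001 to 87000000 of chromosome 12, around Esrrb, with 38 SMC1A and 35 CTCF peaks. Of the 38, 15 were SMC1A-only, with a median fold enrichment of 3.72, and none of these had a motif match. The bin from 117000001 to 118000000 of chromosome 11, with the cytokine signalling inhibitor gene Socs3 and Sept9, held 37 SMC1A peaks, of which 15 were SMC1A-only. The bin from 19000001 to 20000000 of chromosome 7, which holds 53 gene starts including the apolipoprotein gene Apoe, had 36 SMC1A peaks of which 3 were SMC1A-only, and 77 CTCF peaks, the highest number of any bin. The protocadherin clusters at 37000001 to 38000000 of chromosome 18 were next for CTCF, with 65 CTCF and 18 SMC1A peaks, followed by 28000001 to 29000000 of chromosome 17 with 64 and 27. For SMC1A-only peaks, the bin from 75000001 to 76000000 of chromosome 18, with the TGF-beta inhibitor gene Smad7, held 14, among 27 SMC1A and 18 CTCF peaks.

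The classes of CTCF peak also differed in the list made after 12 h of IAA, when CTCF was to be degraded. Of the shared CTCF peaks 13.1% (12.5 to 13.7) overlapped a 12 h CTCF peak by at least 1 bp, against 2.63% (2.39 to 2.89) of the CTCF-only peaks. Within step 10 of the CTCF list the values were 45.7% (43.6 to 47.7) of 2348 and 36.5% (32.8 to 40.4) of 646, and within step 9 they were 18.9% (17.3 to 20.6) and 11.9% (9.72 to 14.4). Each time point had 1 CTCF library, so these values describe those lists.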

How the data were processed

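Peak lists of 1 SMC1A and 1 CTCF library at 0 h, 8 remodeler libraries at 0 h and 1 CTCF library after 12 h of IAA were analysed. Not analysed here were the 10 inputs, the SMC1A list and the 8 remodeler lists after 12 h of IAA. The submitters' processing notes name Trim Galore, Bowtie2, MACS2 and deepTools and the builds mm10 and hg38. Their roles, versions and settings, and the control used for peak calling, are not given in the sources used here. Each deposited list has 10 columns and no header. In the layout of these columns the deposited values are the fold enrichment (a ratio), the −log10 p-value, the −log10 q-value and the distance of the summit from the start of the peak in bp. Each list belongs to 1 sample, so the authors had not pooled replicates. The lists hold no read counts, so the depth is unknown, and they hold no expression values, so cell identity was not checked against markers. No peak of the 2 lists ran past a chromosome end of GRCm38, which was used with the GENCODE M21 basic annotation and the RefSeq sequence. The lists had 1 SMC1A and 8 CTCF peaks on other chromosomes, which were left out.

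Overlaps, summit distances, motif scores, shares and intervals were computed with numpy 2.4.6, scipy 1.17.1, pandas 2.3.3 and pysam 0.24.0, and the code was tested on simulated peaks. A remodeler peak counted where it covered the summit, and odds ratios had 0.5 added to each cell. Named peaks are the 5 highest-ranked of each class, the pairs with the largest difference in percentile, the fullest bins, and the members of the gene lists with a peak. The members and the lists were chosen with earlier results of these data known. The alternatives tried were a q-value limit (−log10 q from 5 up), lists of the same length, other rules for overlap and promoters, other motif thresholds and leaving out each remodeler library.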

Additional observations from a re-analysis of the deposited data

How the results depend on the processing

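No paired analysis was possible because SMC1A and CTCF have 1 library each and the results come from no test. Over the settings tried, 30 values moved beyond the interval of the reported value and 23 did not. For the remodelers this interval was the mean ± SD of 2 libraries, and for the other results it was a confidence interval, so the counts mix both kinds. Leaving out 1 of 2 libraries returns the value of the other one, which always lies within that SD of the mean. Such values are among the 23 by construction and say nothing about stability. With a −log10 q of at least 5 in both lists, the share of SMC1A peaks with a CTCF peak was 92.5%, the share of CTCF peaks with an SMC1A peak 40.2%, the median summit distance 23 bp, the width ratio 1.05, the rank correlation 0.37, the promoter share of SMC1A-only peaks 37.3%, their motif share 32.8%, and the share of SMC1A peaks with the next within 10 kb 12.8%. By construction, SMC1A-only peaks then include some over weaker CTCF peaks. In the full lists the shares of overlapping peaks were 81.7% for SMC1A and 46.0% for CTCF. With the CTCF list at the length of the SMC1A list they were 63.6% and 63.9%, and 19.5% of CTCF peaks were within 10 kb of the next. Of the shared SMC1A peaks, 13559 overlapped exactly 1 CTCF peak. Lists of the same length therefore give nearly equal shares by construction, and their near equality is not a result. With an overlap of at least 50% of both peaks the shares of SMC1A and CTCF peaks were 73.7% and 41.2%, and with summits within 100 bp 76.3% and 42.7%. From the CTCF summit, 39.6% of SMC1A summits were on the 3′ side. With a promoter of 2 kb the promoter share of SMC1A-only peaks was 45.0%, and with protein-coding start sites only 35.6%. Within 20 kb of the next were 27.3% of SMC1A and 41.8% of CTCF peaks. The motif share was 10.7% at the 1% threshold and 28.1% in windows of 100 bp to either side. Convergent neighbours 100 kb to 1 Mb apart made up 31.0% in the upper 50% of the CTCF list, an alternative chosen after seeing the data. The remodeler log2 odds ratios with summits within 100 bp were 0.41 (CHD4, with −0.06 in replicate 1 and 0.89 in replicate 2), 0.95 (CHD8), 1.97 (SMARCA4) and 1.29 (SMARCA5). Away from promoters they were 2.22 (CHD4), 2.09 (CHD8) and 2.06 (SMARCA5). Leaving out 1 library gave 2.28 to 2.42 for CHD4, 2.45 to 2.53 for CHD8, 3.20 to 3.56 for SMARCA4 and 1.94 to 1.99 for SMARCA5. These are the values of the single libraries. The unknown depth of each library sets how many weak peaks were listed, which limits every statement that a peak was listed for only one protein.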
